A study of Mus musculus with 14 samples.

Results

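The genes described are 10 genes of MHC class I antigen presentation, chosen by name from a table of 43346 genes: the heavy chains H2-K1, H2-D1, H2-T23, H2-Q4 and H2-Q7, the light chain B2m, the transport and loading genes Tap1, Tap2 and Tapbp, and the transactivator Nlrc5. RNA was sequenced from brain tissue, with hippocampal and cortical regions, of 14 female mice aged 23 months. The groups were 4 non-transgenic littermates (NTG, mice 7 to 10), 5 vehicle-treated APP/PS1 mice (mice 16 to 20) and 5 CP2-treated APP/PS1 mice (mice 21 to 25). APP/PS1 mice carry human amyloid precursor protein and presenilin transgenes and develop amyloid plaques. CP2, a small molecule that partly inhibits mitochondrial complex I, was given in drinking water with PEG at 25 mg/kg per day from 9 months of age, and the other mice, which the labels call non-treated, drank water with PEG alone. All mice carry the strain label C57BL/6;SJL-Tg, and the promoter that drives the transgenes is not given in the sources used here. NTG mice given CP2 are not analysed here, so the effect of CP2 could be compared in APP/PS1 mice only.

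MHC class I molecules carry peptides from inside the cell to its surface, where CD8 T cells and natural killer cells read them. A heavy chain pairs with beta-2 microglobulin, the product of B2m, and receives a peptide that the proteasome has cut and that the transporter of Tap1 and Tap2 has brought into the endoplasmic reticulum, where tapasin (Tapbp) holds the complex for loading. H2-K1 and H2-D1 encode the classical heavy chains, whereas H2-T23 (Qa-1), H2-Q7 (Qa-2) and H2-Q4 encode non-classical ones. Nlrc5 is a transactivator that is recruited to class I promoters, and interferons raise the whole set. In healthy brain these genes are mostly low, with microglia and endothelium among the cells known to express them.

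In mm10 coordinates, 8 of the 10 genes lie on chromosome 17. From the low end these are Tapbp (chr17:33915899-33929288), H2-K1 (chr17:33996017-34000333), Tap1 (chr17:34187553-34197225), Tap2 (chr17:34203527-34216321), H2-D1 (chr17:35262730-35267499), H2-Q4 (chr17:35379617-35385290), H2-Q7 (chr17:35439155-35443773) and H2-T23 (chr17:36029773-36032855). B2m lies at chr2:122147686-122153083 and Nlrc5 at chr8:94472763-94527272. The counts cover all exons of each gene, coding and untranslated.

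The promoter sequences are shown because Nlrc5, the transactivator among the 10 genes, is known to act at class I promoters. RefSeq (GRCm38.p6) held a promoter for 8 of the 10 genes, all except Tap2 and Nlrc5. The 180 bases that end just before the RefSeq start are given 5′ to 3′ on the strand of the gene. Capitals mark matches, on either strand, to an interferon response-like motif (GAANNGAAA), a kappa B-like motif (GGGGATTCC), the core of a cAMP response element (TGACG, below the CRE core) and a CCAAT box, which appears as ATTGG where it lies on the other strand.
H2-K1, chr17:34000334-34000513, minus strand: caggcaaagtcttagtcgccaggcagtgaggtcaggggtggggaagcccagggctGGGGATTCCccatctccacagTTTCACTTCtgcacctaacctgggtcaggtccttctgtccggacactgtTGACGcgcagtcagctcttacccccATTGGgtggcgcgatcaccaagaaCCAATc
H2-D1, chr17:35262914-35263093, plus strand: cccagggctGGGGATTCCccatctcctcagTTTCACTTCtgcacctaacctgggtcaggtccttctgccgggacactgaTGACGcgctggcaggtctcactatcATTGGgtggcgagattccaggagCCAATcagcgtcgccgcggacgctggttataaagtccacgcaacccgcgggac
H2-Q7, chr17:35438975-35439154, plus strand: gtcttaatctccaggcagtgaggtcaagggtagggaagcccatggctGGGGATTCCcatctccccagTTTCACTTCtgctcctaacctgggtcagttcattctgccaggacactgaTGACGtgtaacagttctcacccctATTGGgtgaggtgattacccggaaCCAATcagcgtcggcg
B2m, chr2:122147507-122147686, plus strand: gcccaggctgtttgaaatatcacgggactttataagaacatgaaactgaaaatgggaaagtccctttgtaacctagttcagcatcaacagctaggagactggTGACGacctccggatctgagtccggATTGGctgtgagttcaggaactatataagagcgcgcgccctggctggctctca
H2-Q4, chr17:35379437-35379616, plus strand: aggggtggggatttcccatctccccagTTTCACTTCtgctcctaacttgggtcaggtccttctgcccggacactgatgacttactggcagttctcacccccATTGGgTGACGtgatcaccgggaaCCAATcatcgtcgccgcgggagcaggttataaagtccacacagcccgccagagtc
H2-T23, chr17:36032702-36032881, minus strand: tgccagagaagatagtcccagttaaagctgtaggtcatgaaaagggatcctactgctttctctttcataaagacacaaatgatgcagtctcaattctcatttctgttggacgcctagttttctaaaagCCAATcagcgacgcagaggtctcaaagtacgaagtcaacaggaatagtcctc

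H2-K1, H2-D1 and H2-Q7 each held the interferon response-like and the kappa B-like match, then the CRE core and then an inverted CCAAT box. The gap between the CRE core and the inverted box was 20 bases in H2-K1, H2-D1 and B2m and 19 bases in H2-Q7. In H2-Q4 the same interferon response-like match was found, but the CRE core came after the inverted CCAAT box. The window of H2-T23 held only a CCAAT match. The promoters of Tap1 and Tapbp are not printed. In the 250 bases before the start, Tap1 held a CRE core and a CCAAT match, and Tapbp held CCAAT matches only. Neither held the interferon response-like or the kappa B-like match, nor a CRE core followed by an inverted CCAAT box. Over the 250 bases before the start of 32851 promoters, 6.31% held the interferon response-like motif, 0.213% the kappa B-like motif, 17.8% the CRE core and 33.8% a CCAAT box. A CRE core followed by an inverted CCAAT box after 14 to 26 bases was found in 0.219%, and this spacing was chosen after the members' sequences were seen. A match is a run of letters and was not tested as a binding site. Only these exact letters were searched. A stretch left in lower case, in B2m or H2-Q4 for example, may be another form of a motif. The RefSeq starts used for H2-D1, H2-T23 and Tapbp lie inside the gene coordinates given above. Sequence upstream of those coordinates was searched only in part for H2-T23, and not at all for H2-D1 and Tapbp. The lack of a mark therefore does not show that a gene lacks the element.

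Total counts per mouse ranged from 70548781 to 106235625, and the counts of 26 pairs of mice within groups all differed by more than sampling noise. Mouse 16, vehicle-treated APP/PS1, stood apart: 9 striatal markers summed to 2549 CPM in it (library-scaled read counts, defined below) and to 202 to 390 in the other 13 mice. Its part in the results was not tested, and for some results values without it are given below. Values per mouse are CPM, counts scaled to a common library size by the library total and its TMM factor, fold changes are on the log2 scale with their standard error (SE), and a gene is called at an adjusted p under 0.05 in edgeR's quasi-likelihood test. In bulk tissue, fewer cells of a type and less RNA per cell cannot be told apart.

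Levels of different genes were compared per length, in the deposited RPKM. In NTG mice B2m was highest at 66.9 ± 8.53 RPKM (SD, n = 4), followed by H2-D1 at 13.2 ± 3.43, Tapbp at 7.64 ± 0.630 and H2-K1 at 6.39 ± 2.19. Tap2 (2.64), H2-T23 (1.60), H2-Q4 (1.27), Tap1 (0.619), H2-Q7 (0.440) and Nlrc5 (0.163) followed. H2-D1 and Tapbp, Tapbp and H2-K1, Tap2 and H2-T23, and H2-T23 and H2-Q4 overlapped between mice, so their order is not settled. The other neighbours did not overlap, and B2m was 421 ± 79.2 times Nlrc5 within a mouse (SD, n = 4). In vehicle-treated APP/PS1 mice B2m was at 197 ± 54.1 RPKM and Nlrc5 at 0.560 ± 0.216 (SD, n = 5 each), and in CP2-treated mice B2m ranged from 133 to 158 RPKM and Nlrc5 from 0.277 to 0.492. H2-K1 ranked above Tapbp in both APP/PS1 groups and below it in NTG, and these 2 genes overlapped in all 3 groups.

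The first comparison asked how APP/PS1 mice on vehicle differ from NTG littermates in these genes. All 10 had higher means in APP/PS1 mice, and 8 rose by the test, beside 4.34% of the 16417 genes tested. H2-Q4, Nlrc5, H2-Q7, B2m, H2-K1, H2-D1 and Tap1 were between 2.34 and 3.83 times their NTG level, and Tapbp was 1.38 times. For the same 8 genes every APP/PS1 mouse lay above every NTG mouse, beside 5.93% of all genes. The median change of the 10 was 1.42 (range 0.32 to 1.94), beside -0.0042 for all genes tested.

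**Figure D1:**
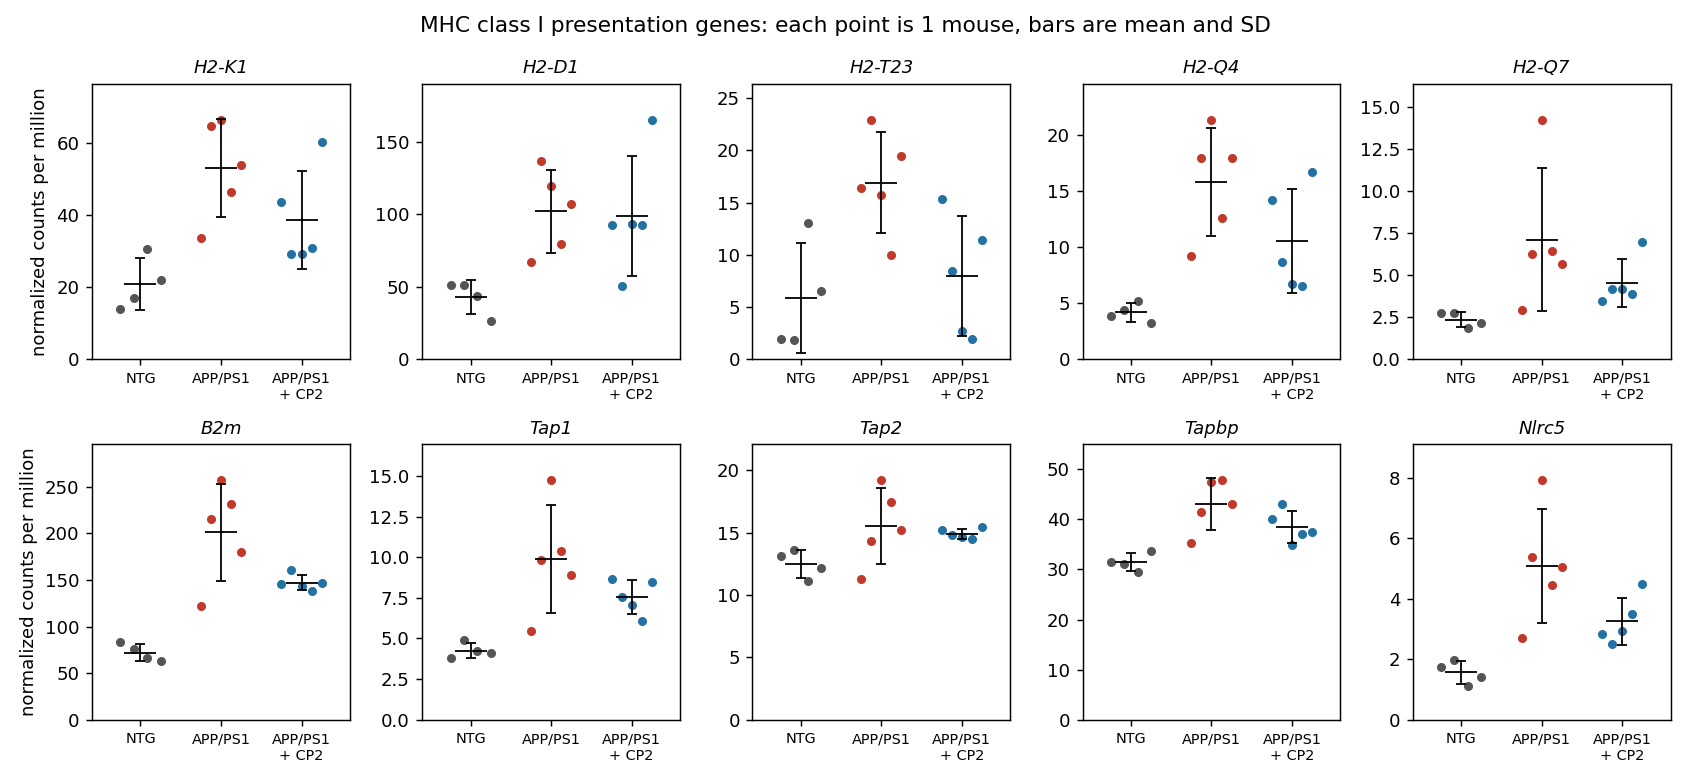
Normalized CPM (vertical axis, linear from 0) of the 10 genes in NTG, vehicle-treated APP/PS1 and CP2-treated APP/PS1 mice (horizontal axis). Each point is 1 mouse and the bars are mean and SD. For 8 genes all points of the vehicle-treated APP/PS1 mice lie above those of the NTG mice, and H2-T23 and Tap2 are the exceptions.

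Of the classical heavy chains, H2-K1 was at 14, 17, 30.7 and 21.9 CPM in NTG mice 7 to 10 and at 33.6, 64.9, 66.6, 46.4 and 54 CPM in APP/PS1 mice 16 to 20. Mouse 16 was the lowest of the APP/PS1 mice and lay just above NTG mouse 9. The change of H2-K1 was 1.36 (SE 0.25, adjusted p = 0.0117). H2-D1 was at 51.1, 51.1, 43.2 and 26.2 CPM in NTG mice and at 66.9, 137, 120, 79.3 and 107 CPM in APP/PS1 mice. The groups did not overlap, and H2-D1 changed by 1.25 (SE 0.25, adjusted p = 0.0150).

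Among the non-classical heavy chains, H2-Q4 had the largest change of the 10 genes. It was at 3.85, 4.36, 5.22 and 3.19 CPM in NTG mice and at 9.22, 17.9, 21.4, 12.6 and 18 CPM in APP/PS1 mice. The groups were well apart, with a change of 1.94 (SE 0.25, adjusted p = 0.00141). H2-Q7, which encodes the Qa-2 antigen, was at 2.74, 2.71, 1.82 and 2.13 CPM in NTG mice and at 2.92, 6.25, 14.2, 6.44 and 5.64 CPM in APP/PS1 mice. Mouse 18 was the highest and mouse 16 lay close to the NTG mice. The change was 1.60 (SE 0.39, adjusted p = 0.0407), and the call was lost for 7 of the 9 mice when each was left out in turn, with an adjusted p of up to 0.130.

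H2-T23 encodes Qa-1, a ligand of inhibitory receptors on natural killer and CD8 T cells. It was at 1.89, 1.84, 13 and 6.47 CPM in NTG mice and at 16.4, 23.0, 15.7, 9.999 and 19.5 CPM in APP/PS1 mice. NTG mouse 9 lay above APP/PS1 mouse 19, so the groups overlapped. The change of 1.55 (SE 0.54) did not pass the test (adjusted p = 0.152), and without mouse 9 it was 2.31 (adjusted p = 0.0294).

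B2m, the light chain shared by all heavy chains, was at 83.4, 76.0, 66.2 and 62.8 CPM in NTG mice and at 122, 215, 257, 232 and 180 CPM in APP/PS1 mice. The lowest APP/PS1 mouse, mouse 16, was above the highest NTG mouse. B2m changed by 1.49 (SE 0.20, adjusted p = 0.00161) and stayed called whichever of the 9 mice was left out.

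Tap1 and Tap2 encode the subunits of the peptide transporter. Tap1 was at 3.78, 4.91, 4.21 and 4.10 CPM in NTG mice and at 5.47, 9.84, 14.7, 10.37 and 8.93 CPM in APP/PS1 mice, a change of 1.23 (SE 0.24, adjusted p = 0.0141). Tap2 was at 13.1, 13.7, 11.1 and 12.2 CPM in NTG mice and at 11.3, 14.3, 19.2, 17.5 and 15.3 CPM in APP/PS1 mice. Mouse 16 lay inside the NTG range of Tap2, and its change of 0.32 (SE 0.14) did not pass (adjusted p = 0.273). Without mouse 16 the change of Tap2 was 0.42 (adjusted p = 0.0383), and 9 of the 10 genes were then called.

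Tapbp, which encodes tapasin, was at 31.5, 31.2, 29.6 and 33.7 CPM in NTG mice and at 35.3, 41.5, 47.6, 47.8 and 43.1 CPM in APP/PS1 mice. Its change was small but larger than the spread between mice, at 0.46 (SE 0.09, adjusted p = 0.0155). Nlrc5 was at 1.75, 1.98, 1.11 and 1.42 CPM in NTG mice and at 2.69, 5.37, 7.92, 4.44 and 5.03 CPM in APP/PS1 mice. The groups did not overlap and Nlrc5, the least abundant of the 10, changed by 1.71 (SE 0.29, adjusted p = 0.00701). Without NTG mouse 9 the calls of H2-D1, H2-Q7, Tap1 and Tapbp were lost and 5 genes were called, H2-T23 among them.

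The second comparison asked how CP2 treatment changed the genes in APP/PS1 mice. With CP2 the estimates of all 10 were below those on vehicle, with a median of -0.45 (range -1.09 to -0.04) beside -0.006 for all genes. None was called by edgeR, DESeq2 or limma-voom, beside 0.00609% of 16407 genes called lower by edgeR. At an unadjusted p under 0.05, 2 of the 10, B2m and Nlrc5, were lower, beside 3.66% of all genes. No gene of the 10 had groups that did not overlap, beside 0.591% of all genes.

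B2m was at 146, 161, 144, 138 and 147 CPM in CP2-treated mice 21 to 25. All 5 lay between mouse 16 and the other 4 vehicle-treated mice, with a difference of -0.45 (SE 0.16, adjusted p = 0.744). Nlrc5 was at 2.83, 2.51, 2.93, 3.49 and 4.50 CPM, and all but mouse 25 lay below 4 of the 5 vehicle-treated mice. Its difference was -0.65 (SE 0.25, adjusted p = 0.744). Leaving out mouse 16 gave 7 of the 10 genes at an unadjusted p under 0.05 and still none called. The share of all genes at this unadjusted threshold was computed for the fit with all mice only. The 7 therefore cannot be set against the share in their own fit.

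Among the heavy chains, H2-K1 was at 43.8, 29.1, 29.1, 30.9 and 60.4 CPM in CP2-treated mice, a difference of -0.46 (SE 0.24, adjusted p = 0.749). H2-D1 was at 92.8, 50.4, 93.2, 92.6 and 165 CPM, where mouse 25 was above and mouse 22 below every vehicle-treated mouse. Its difference was -0.04 (SE 0.28, adjusted p = 0.978) and turned positive when mouse 17, 18 or 22 was left out. H2-Q4 was at 14.2, 8.67, 6.68, 6.54 and 16.7 CPM, a difference of -0.58 (SE 0.30, adjusted p = 0.749).

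H2-Q7 was at 3.45, 4.18, 4.13, 3.84 and 6.98 CPM, a difference of -0.65 (SE 0.35, adjusted p = 0.749) that was -0.24 without vehicle-treated mouse 18. H2-T23 was at 15.3, 8.44, 2.66, 1.89 and 11.4 CPM. Mice 23 and 24 were at the level of NTG mice 7 and 8, whereas mice 21 and 25 lay inside the range of the vehicle-treated mice. The difference was -1.09 (SE 0.50, adjusted p = 0.744).

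For transport and loading, Tap1 was at 8.63, 7.53, 7.07, 6.11 and 8.45 CPM, a difference of -0.38 (SE 0.21, adjusted p = 0.749) that was -0.20 without mouse 18. Tap2 was at 15.2, 14.8, 14.6, 14.5 and 15.4 CPM, with -0.05 (SE 0.12, adjusted p = 0.930). Tapbp was at 40.0, 43.1, 34.8, 37.1 and 37.4 CPM, with -0.16 (SE 0.09, adjusted p = 0.749). The values of Tap2 and B2m were closer together in the CP2-treated mice, with SDs of 0.401 and 8.36 CPM against 3.04 and 52.2 in the vehicle-treated mice. H2-D1 and H2-T23 went the other way, with SDs of 41.4 and 5.72 CPM against 28.6 and 4.81. The differences in spread were not tested.

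The third comparison set APP/PS1 mice given CP2 against NTG littermates, and it shares its NTG mice with the first and its CP2-treated mice with the second. The median change was 0.93, beside -0.0015 for all genes, and 8 of the 10 genes were higher by the test, beside 4.56% of 16416 genes. B2m (1.04, SE 0.08, adjusted p = 0.000198), Tap1 (0.84, SE 0.12, adjusted p = 0.00228) and Nlrc5 (1.07, SE 0.21, adjusted p = 0.0127) rose, and stayed called whichever of the 9 mice was left out. H2-Q4 (1.36, adjusted p = 0.0215), Tapbp (0.30, adjusted p = 0.0246), H2-Q7 (0.96, adjusted p = 0.0261), H2-D1 (1.22, adjusted p = 0.0378) and Tap2 (0.27, adjusted p = 0.0478) rose as well. These 5 calls were less stable: leaving out 1 mouse left 2 of 9 fits with a call for H2-D1, 1 for Tap2, 6 each for H2-Q4 and Tapbp and 7 for H2-Q7. H2-K1 (0.90, adjusted p = 0.0804) and H2-T23 (0.47, adjusted p = 0.766) did not pass. The estimate of H2-T23 ran from 0.09 without CP2-treated mouse 21 to 1.23 without NTG mouse 9, and leaving out mouse 7, 8, 24 or 25 also moved it by over 1.5 times (0.18, 0.18, 0.72 and 0.30). In 7 of the 10 genes the groups did not overlap, beside 6% of all genes.

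**Figure D2:**
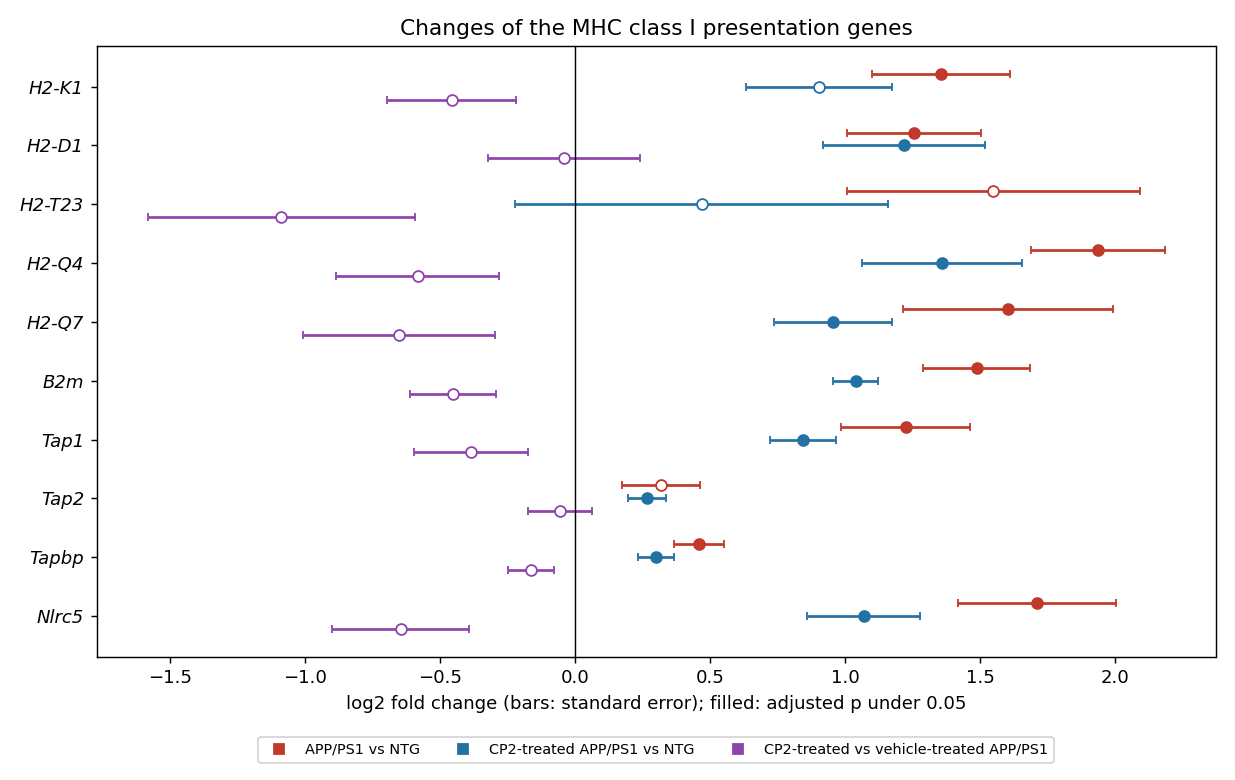
Log2 fold changes (horizontal axis) with standard errors of the 10 genes in the 3 comparisons. Filled circles passed an adjusted p of 0.05 and open ones did not. In both comparisons with NTG 8 circles are filled, and all 10 estimates of CP2-treated against vehicle-treated mice are open and below 0.

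Ratios of 2 genes within a library, which do not depend on scaling, were compared for 6 pairs in the 3 comparisons, 18 tests in all. Tap1 to Tap2 had the largest difference: its mean log2 ratio was -1.56 ± 0.170 in NTG mice (SD, n = 4) and -0.70 ± 0.250 in vehicle-treated APP/PS1 mice (SD, n = 5). The groups did not overlap, and p = 0.0159 was the smallest that the two-sided exact permutation test allows for 5 against 4 mice (adjusted p = 0.143). In CP2-treated mice the ratio was -0.99 ± 0.168 (SD, n = 5), which also lay apart from NTG (exact permutation p = 0.0159, adjusted p = 0.143). Tap1 and Psmb9, an immunoproteasome subunit gene that starts next to Tap1 on the opposite strand, kept a mean log2 ratio of 1.03 in NTG, 1.04 in vehicle-treated and 1.10 in CP2-treated mice. The exons of these 2 genes overlap by 212 bases, where a read counted on both, and the part of such reads in the ratio was not tested. For H2-D1 to H2-K1, H2-K1 to B2m, H2-D1 to B2m and H2-Q4 to H2-Q7 the adjusted p was 0.321 or more in the exact permutation tests. None of the 18 tests passed the correction. The smallest permutation p was 0.0159 for 5 against 4 mice and 0.00794 for 5 against 5. A single ratio could therefore not pass a correction over 18 tests, however far apart its groups lay.

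Within the groups the 10 genes did not vary as 1 block. Log2 CPM was centred within each group and correlated over the 14 mice, as a description, since genes of a mouse share a library. H2-Q7, B2m, Tap1, Tap2, Tapbp and Nlrc5 correlated with each other at r of 0.41 to 0.91. For each of these genes mouse 16 was the lowest of the vehicle-treated mice. Mouse 18 was the highest of them for all but Tapbp. No r, here or for the likeness of other genes below, was computed without mouse 16 or 18, so the part of these mice was not tested. H2-K1 was closest to H2-Q4 (r = 0.82) and H2-T23 (r = 0.70). H2-T23 had r of -0.17 with B2m, -0.24 with Tap2 and -0.25 with Nlrc5. Against the mean of the other 9 genes, Tap1 had the highest r (0.922) and H2-T23 the lowest (0.108).

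**Figure D3:**
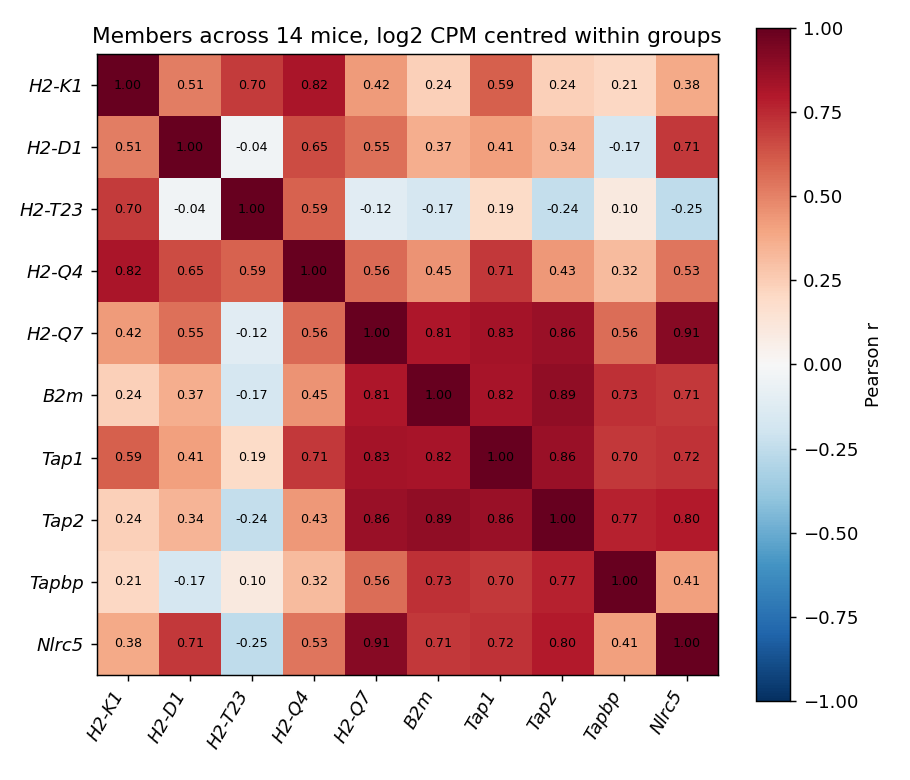
Pearson r between the 10 genes over 14 mice, from log2 CPM centred within the 3 groups, with the colour scale from -1 to 1. The 6 genes from H2-Q7 to Nlrc5 form a block with r of 0.41 to 0.91, and the row of H2-T23 is near or below 0 except with H2-K1 and H2-Q4.

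Outside the 10 genes, those whose within-group pattern was most like the members' mean included H2-Q6 (r = 0.951), Ifi44 (0.949), Als2cl (0.949), Rnf213 (0.938), Ddx60 (0.932), Eif2ak2 (0.928), Ddc (0.922), Oasl2 (0.919) and Slc18a2 (0.913). H2-Q6 is a neighbouring heavy chain gene that shares sequence with H2-Q7. Ifi44, Rnf213, Ddx60, Eif2ak2 and Oasl2 are known interferon-stimulated genes, and Ddc and Slc18a2 serve monoamine neurons.

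H2-T23 followed its neighbours on chromosome 17. Among the 50 genes with the highest absolute r to H2-T23 within groups, 19 lay on chromosome 17, beside 4.73% of all genes tested, and 18 of these lay within 10 Mb of it. The closest were H2-T24 (r = 0.985) and H2-T22 (r = 0.969). For the other members the same count on chromosome 17 was 8 for H2-K1, 6 each for Tap1 and Nlrc5, 5 for H2-Q4, 3 each for H2-Q7 and Tap2, 2 for H2-D1 and 1 each for B2m and Tapbp.

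Several H2 genes had steps between mice that crossed the groups, and they were picked after their values were seen. H2-T24 was at 1.24, 1.40, 7.69 and 4.28 CPM in NTG mice 7 to 10, at 5.51 to 9.65 CPM in vehicle-treated APP/PS1 mice, and at 7.70, 5.39, 1.79, 1.82 and 5.95 CPM in CP2-treated mice 21 to 25. H2-T10 ran the other way. It was at 20.2 to 25.2 CPM in mice 7, 8, 23 and 24, at 10.34 to 14.4 in mice 10, 18, 19, 22 and 25, and at 2.53 to 4.13 in mice 9, 16, 17, 20 and 21. H2-Ea-ps, a class II pseudogene, was at 0.0149 CPM or less in all NTG mice and at 0.0261 or less in CP2-treated mice 23, 24 and 25, but at 0.775 to 3.49 CPM in the vehicle-treated APP/PS1 mice and in CP2-treated mice 21 and 22.

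As background, C57BL/6 and SJL mice carry different H2 haplotypes, and mm10 is the C57BL/6J genome, so reads of another haplotype may align differently. The haplotype of each mouse is not given in the sources used here, and its part in the differences of the chromosome 17 genes was not tested. With log2 CPM of H2-T10 added as a covariate, an alternative chosen after seeing the data, the call of H2-T23 in APP/PS1 against NTG appeared (1.45, adjusted p = 0.0242) and the 8 other calls stayed. H2-T10 is itself a class I heavy chain gene, and it did not follow H2-Ea-ps. H2-Ea-ps was at 0.0149 CPM or less in all NTG and at 0.775 to 3.49 CPM in all vehicle-treated APP/PS1 mice. A haplotype difference that follows these groups cannot be told apart from the APP/PS1 difference here, with or without this covariate. In CP2-treated APP/PS1 against NTG mice, H2-K1 gained a call (0.98, adjusted p = 0.0196) and H2-D1 lost it (adjusted p = 0.0546).

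**Figure D4:**
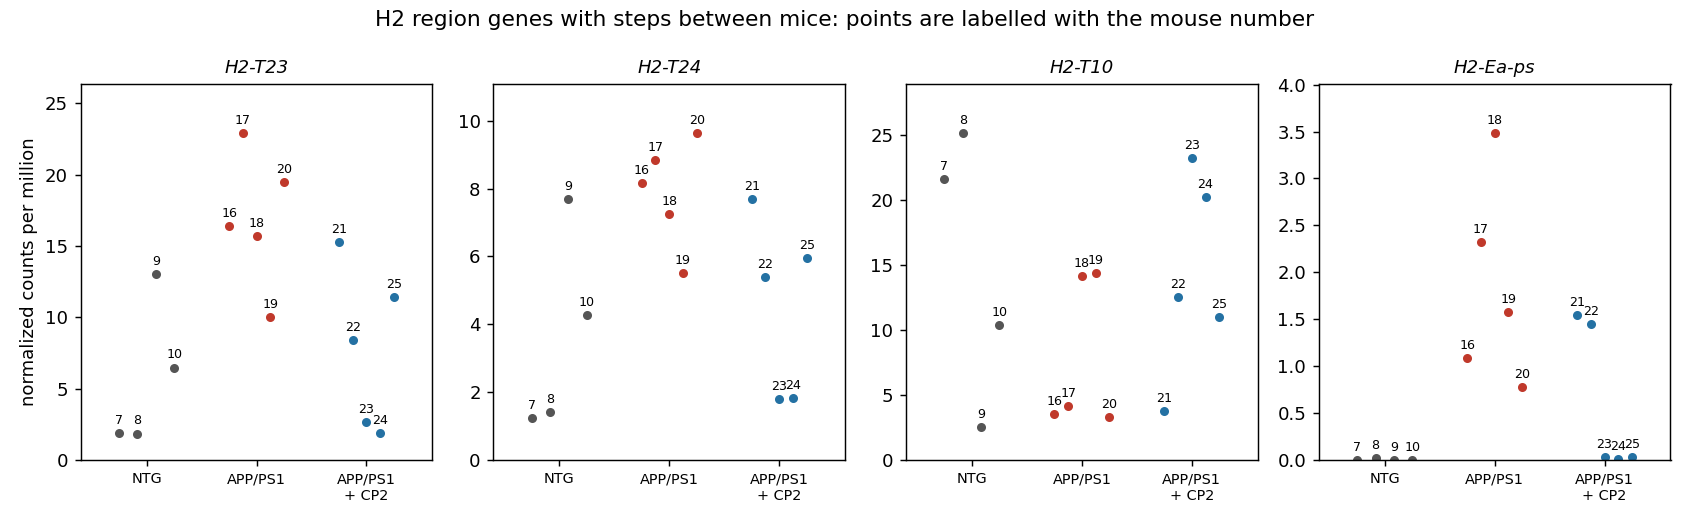
Normalized CPM (vertical axis, linear from 0) of H2-T23, H2-T24, H2-T10 and H2-Ea-ps in the 3 groups (horizontal axis), each point labelled with its mouse number. H2-T23 and H2-T24 are low and H2-T10 is high in mice 7, 8, 23 and 24, and H2-Ea-ps is near 0 in all NTG mice and in mice 23, 24 and 25.

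Sequence shared between genes also bears on the counts. Of all 101-base windows of the exons, the share found in another gene was 14.7% for Tapbp, 13.9% for H2-Q4 and 11.8% for H2-Q7, between 0.905% and 4.86% for H2-K1, H2-D1, H2-T23, Tap1 and Tap2, and 0% for B2m and Nlrc5. H2-Q4 overlaps Gm11131 and Tapbp overlaps Gm19412, both on the opposite strand, so reads of these pairs may not be told apart. When the 8 H2-Q genes were summed, they were higher in APP/PS1 than in NTG mice by 1.76 (SE 0.28, adjusted p = 0.00462). The 28 class I heavy chain genes summed were higher by 1.09 (SE 0.17, adjusted p = 0.00460). In CP2-treated against vehicle-treated mice the 2 sums were at -0.66 (adjusted p = 0.746) and -0.27 (adjusted p = 0.807).

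The other genes of the pathway moved unevenly. Of 5 immunoproteasome genes, which encode the proteasome subunits and activators that favour class I peptides, Psmb8 (1.64, adjusted p = 0.000597) and Psmb9 (1.22, adjusted p = 0.0241) rose in APP/PS1 against NTG mice. Psme1 (0.23), Psme2 (0.20) and Psmb10 (0.09) did not pass. Psmb8 and Psmb9 were also higher in CP2-treated mice than in NTG (1.19 and 0.76, adjusted p = 0.000352 and 0.00326). Of 11 chaperone and peptide-trimming genes of the endoplasmic reticulum none was called in any comparison. The smallest p in APP/PS1 against NTG among these belonged to the aminopeptidase gene Erap1 (0.35, adjusted p = 0.122), with Hspa5 (-0.21), P4hb (0.11) and Pdia3 (0.08) next.

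Of 28 other class I heavy chain genes, 23 were in the table and 8 were tested, of which H2-Q6 (1.63, adjusted p = 0.0492) and H2-Q10 were called higher in APP/PS1 mice. H2-Q10 was at 0.531 to 1.07 CPM in NTG and at 1.35 to 6.32 CPM in vehicle-treated APP/PS1 mice. It passed the filter only through the latter and was not among the 6 genes tested in CP2-treated APP/PS1 against NTG. H2-M3 (0.66, adjusted p = 0.0692) and H2-K2 (1.38, adjusted p = 0.0762) did not pass, and H2-Q6 and H2-M3 were called higher in CP2-treated mice than in NTG (1.01 and 0.56, adjusted p = 0.0160 and 0.0211). Of 3 tested class I-related genes outside the H2 region, Fcgrt (0.26), Hfe (0.28) and Mr1 (0.17) did not pass. Of 12 receptors listed as binding class I molecules or as relatives of such receptors, 11 were in the table. Only Lilrb4 passed the filter, and it is not taken here as a receptor for class I molecules. It was at 0.354 to 1.32 CPM in NTG, 5.62 to 12.7 CPM in vehicle-treated and 4.40 to 8.57 CPM in CP2-treated mice. Neither APP/PS1 group overlapped with NTG. Lilrb4 passed the filter only through the APP/PS1 groups, where it was high, so its call in both comparisons with NTG is no support for the list.

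Of 13 other factors known at class I promoters only Irf8 rose in APP/PS1 mice (1.72, adjusted p = 0.000532). Irf1 (0.51), Rela (0.27) and Atf1 (0.17) did not pass, and Irf8 (1.5), Rela (0.21, adjusted p = 0.0356) and Nfkb1 (0.33, adjusted p = 0.00839) were called in CP2-treated mice against NTG. Of 11 genes for interferon receptors and their signal chain, 5 rose in APP/PS1 mice, among them Ifnar2 (0.51), Irf9 (0.88), Ifngr1 (0.39) and Stat2 (0.38), with adjusted p between 0.00174 and 0.0227 for these. Ifnar2 and Irf9 were called in CP2-treated mice against NTG as well (0.39 and 0.63). None of the 5 interferon genes was expressed enough to test, and their sum was at most 0.104 CPM in any mouse. In CP2-treated against vehicle-treated mice no gene of these pathway lists was called. At an unadjusted p under 0.05, 3 of 5 immunoproteasome genes and 3 of 8 other heavy chain genes were lower, beside 3.66% of all genes. No gene of the other pathway lists was. The heavy chain genes H2-Q2 and H2-Q10 passed the filter only through the vehicle-treated mice, where they were high. Their part of the count is therefore no support for a lowering.

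Markers of cells that carry class I molecules were read in the same fits. All 15 microglial markers were tested and 14 rose in APP/PS1 against NTG mice, among them Trem2 (2.46), Siglech (1.11) and Csf1r (1.05). Their summed level was 520 to 535 CPM in NTG, 1013 to 1489 in vehicle-treated and 880.5 to 1276 in CP2-treated APP/PS1 mice, and 13 of 15 were higher in CP2-treated mice than in NTG. Of 13 endothelial markers 1, Pecam1 (0.40), rose in APP/PS1 mice, and 5 were higher in CP2-treated mice than in NTG, with sums of 309 to 329, 323 to 433 and 345 to 390 CPM. Of 17 T and natural killer cell markers, 2 (Trbc2 and Lck) were tested and none was called. Cd3e, which defines T cells, was at 0.314 CPM or less in every mouse, and the list's sum was 5.23 to 6.47 CPM in NTG, 8.46 to 29.4 in vehicle-treated and 5.91 to 8.93 in CP2-treated mice, where 21.6 of the 29.4 CPM in mouse 16 was Cd4. Cd8a was at 0.0909 to 0.202 CPM in NTG, 0.253 to 1.14 in vehicle-treated and 0.147 to 0.287 in CP2-treated mice. Cd3g, Nkg7, Gzmb and Klrb1c were also higher in CPM in every vehicle-treated than in every NTG mouse, beside 5.93% of all genes tested. The separation rested on few reads. Klrb1c had 6 reads in NTG mouse 10 and 6 in vehicle-treated mouse 16, and differed there by library scaling only. Gzmb had 4 reads in NTG mice 7 and 9 and 6 in mouse 16. The other markers of the list overlapped between these groups. Cd8a, Cd3g, Nkg7, Gzmb and Klrb1c were below the filter and were not tested. Blood markers, with 2 of 5 called, summed to 82.5 to 152, 114 to 471 and 137 to 443 CPM in the same order. The part of these cells in the changes of the class I genes was not tested.

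The labelled tissue was checked against its markers: 10 neuronal markers summed to 5287 to 6521 CPM and 7 oligodendrocyte markers to 4636 to 7571 CPM over all mice, and none of either list was called in any comparison. Of 9 astrocyte markers, Gfap rose (2.30, adjusted p = 0.000649) and Fgfr3 and Slc1a2 fell in APP/PS1 mice. The choroid plexus sum ran from 31.5 to 1385 CPM and the meningeal sum from 594.5 to 1277 CPM across mice, and no marker of these lists or of the striatal list was called.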

How the data were processed

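RNA was measured in 14 mice of 3 groups. Per the labels and the paper's methods, the authors made TruSeq libraries, sequenced paired 101-base reads, aligned them with TopHat to mm10 (MAP-RSeq workflow) and counted with featureCounts on Ensembl genes, a read counting on each gene it overlapped. The strand setting is not given in the sources used here. The table deposited holds raw read counts per gene, RPKM values computed by the authors and a coding length per gene. Counts were the basis of all tests, and RPKM served to compare levels. Each sample is a separate mouse, and nothing says whether mice share litters.

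Each comparison was fitted on its 2 groups with edgeR 4.0.16 (glmQLFit, glmQLFTest, TMM factors) in R 4.3.3, on genes whose CPM by size factors exceeded 1 in every mouse of at least 1 group. P-values were adjusted by Benjamini-Hochberg over all genes tested, and a call is an adjusted p under 0.05. On simulated counts with 200 genes changed by a log2 change of 1, the fits recovered 94.5% (APP/PS1 against NTG), 96% (CP2-treated against vehicle-treated) and 98% (CP2-treated against NTG). The members' estimates in CP2-treated against vehicle-treated mice were mostly smaller, with a median of -0.45. The recovery of 96% therefore does not tell how often changes of their size would be called. The counts were simulated with dispersions and library factors that edgeR estimated from the data, and with no mouse unlike its group. They therefore do not set edgeR and DESeq2 on equal terms. Ratios used counts plus 0.5 and two-sided exact permutation tests. Alternatives were DESeq2 1.42.0, limma 3.58.1 (voom), other factors and filters, all 3 groups in 1 fit, leaving out each mouse, and an H2-T10 covariate added after seeing the data. The figures and ratios used Python 3.11.15 with scipy 1.17.1. The members and gene lists were chosen with earlier results of these data known. All 10 members are named. Of each list, every gene is named where at most 6 were tested, otherwise up to 4 with the smallest p in APP/PS1 against NTG and any called in another comparison, and marker lists are given by their leading genes and sums. Some genes that this rule names are not reported here. All 10 members passed the filter in each comparison.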

Additional observations from a re-analysis of the deposited data

Results flagged for a closer look

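Of 30 groups tested, 1 gene in 1 group had a mouse far from the rest: H2-Q7 was at 6.98 CPM in CP2-treated mouse 25, where the next mouse was at 4.18 CPM. The gap was 0.793 of the group's range, above Dixon's critical value of 0.71 for 5 samples. Chance flags about 1 in 20 groups.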

How the results depend on the processing

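No paired analysis was possible because the groups share no replicate numbers. For the 10 genes, settings other than leaving out a mouse kept the direction of every estimate. With 1 mouse left out, the number of members called in APP/PS1 against NTG (8 with all mice) ranged from 5 (without NTG mouse 9) to 9, and in CP2-treated APP/PS1 against NTG (8 with all mice) from 4 (without NTG mouse 10 or CP2-treated mouse 21) to 7, with 5 without NTG mouse 8 or 9. In the latter comparison it was 5 with all 3 groups in 1 fit. In CP2-treated against vehicle-treated mice the number at an unadjusted p under 0.05 ranged from 1 (without mouse 18 or 23) to 7 (without mouse 16), was 6 without mouse 25 and was 8 with limma-voom. For these settings the share of all genes at that threshold was not computed. Listed pathway genes called in APP/PS1 against NTG were 11, 18 with DESeq2, 17 with limma-voom and 6 to 18 with 1 mouse left out (6 without NTG mouse 8 or 10, 18 without mouse 16). Those in CP2-treated APP/PS1 against NTG were 11, and 6 with all 3 groups in 1 fit. With the main settings, Lilrb4 is in both counts and H2-Q10 in the count for APP/PS1 against NTG. Both genes passed the filter only through APP/PS1 groups, where they were high, so the counts are no support for the lists. Genes called in all were 932, 1 and 989 in the 3 comparisons in the order of the report, and 1667, 23 and 1670 with DESeq2, whose calls on counts simulated with edgeR's dispersions were false in 16.6%, 16.7% and 12.9%, against 4.06%, 2.54% and 2.97% with edgeR. The first was 1563 with limma-voom and 578 (without NTG mouse 9) to 1474 (without mouse 16) with 1 mouse left out. The second was 0 with all 3 groups in 1 fit and 0 (without mouse 22) to 1, and the third 572 (without NTG mouse 9) to 1123, with 623 without NTG mouse 8 and 616 without mouse 21. In CP2-treated against vehicle-treated mice the estimate of H2-D1 ran from -0.3135 to 0.126 with 1 mouse left out (0.082 without mouse 17, 0.0203 without mouse 18, 0.126 without mouse 22) and that of Tap2 from -0.1492 to 0.0305 (without mouse 18). Ratio differences near 0 also turned sign when 1 mouse was left out. In APP/PS1 against NTG these were H2-D1 to H2-K1 (-0.3833 to 0.1536), H2-K1 to B2m (-0.3216 to 0.1682) and Tap1 to Psmb9 (-0.0778 to 0.0436). In CP2-treated APP/PS1 against NTG they were H2-K1 to B2m (-0.3924 to 0.0975), H2-D1 to B2m (-0.0919 to 0.3679) and Tap1 to Psmb9 (-0.0217 to 0.1088). In CP2-treated against vehicle-treated mice they were H2-K1 to B2m (-0.247 to 0.0483) and Tap1 to Psmb9 (-0.0024 to 0.0993). The cause was not tested. Depth limits the low genes: 3 counts equalled 0.0277 to 0.0446 CPM.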
